A study of Mus musculus with 9 samples.

Results

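The respiratory chain genes described here are the nuclear genes of complexes I to V of mitochondrial oxidative phosphorylation, together with cytochrome c. They were chosen by symbol: Nduf genes of the a, b, c, s and v series, Sdha to Sdhd, and all genes whose symbols begin with Uqcr, with Cox4 to Cox8 or with Atp5. Cycs and Cyc1, the genes of cytochrome c and of cytochrome c1, were added. Only probe sets listed for exactly 1 gene were taken, and of several for a gene the brightest over all 9 arrays was used. This gave 82 genes, read from 168 probe sets, of 18193 genes measured. They comprised 33 genes of complex I, 4 of complex II, 9 of complex III, 17 of complex IV and 17 of complex V, with Cycs counted apart. The remaining match, Cox7a2l, encodes a factor that helps to assemble respiratory supercomplexes rather than a subunit. Probe sets listed for several genes were left out, which removed Ndufs6 and Ndufa11 altogether and some probe sets of Ndufa13, Ndufb2, Ndufb4 and Ndufs5.

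All 9 samples were T cells of C57BL/6 mice from which RNA bound to Argonaute (AGO), the protein that carries microRNAs, had been recovered after crosslinking with ultraviolet light. Before that the cells had spent 24 h with C57BL/6 dendritic cells (syngeneic), with BALB/c dendritic cells (allogeneic), or with anti-CD3e and anti-CD28 antibodies, 0.1 µg/ml (anti-CD3/CD28). The co-cultures held 20 T cells per dendritic cell, and the labels name no dendritic cells for the antibody culture. Each group had 3 arrays, which the labels call biological replicates 1 to 3 without naming mice, so p-values measure the spread between these arrays. No arrays of RNA before immunoprecipitation were used, so the amount of a transcript and its binding to AGO cannot be told apart. Likewise, fewer cells of a type and less RNA per cell cannot be told apart.

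The respiratory chain passes electrons from NADH through complex I, or from succinate through complex II, to coenzyme Q, complex III, cytochrome c and finally to oxygen at complex IV. Complexes I, III and IV pump protons across the inner membrane, and complex V, the ATP synthase, uses their return to make ATP. Resting T cells rely largely on this machinery, and T cells that are activated raise glycolysis and also enlarge their mitochondria before they divide. Many core subunits hold the flavins, iron-sulphur clusters, haem or nucleotide-binding sites, while most small accessory subunits stabilise the complexes. Some accessory subunits of complex IV have isoforms that are restricted to muscle, brown fat, lung or testis.

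Many of the nuclear genes share promoter elements, and the sequences are shown because they show what genes of a common function have in common in sequence. RefSeq promoter windows on build GRCm38.p6 run from 250 bases before to 50 after the gene start, and 72 windows matched 67 of the 82 genes. On either strand, the NRF1 core GCGCATGCG lay in 8 of the 72 windows (11.1%), against 1.75% of all 32851 windows. The ETS motif CCGGAAG, to which GABPA binds, lay in 17 (23.6%), against 8.86%. The YY1 motif AAGATGGC lay in 9 (12.5%), against 2.75%. At least 1 of the 3 motifs was found in 29 windows (40.3%), against 12.5% of all windows. The 150 bases chosen for Cycs and for Atp5g2, a gene of the ATP synthase c subunit, carry the NRF1 core in capitals, 61 and 42 bases before the gene start. Both-strand matches overlap in Atp5g2, so that 10 letters are capitalised there. Those of Ndufs3, a core subunit of complex I, and of Sdhd, a membrane anchor of complex II, carry the ETS motif in capitals, 27 and 46 bases before the start. The window of Atp5g1, the member with the largest mean difference below, holds none of the 3 motifs. Each sequence is 150 bases of the minus strand, 5′ to 3′, at chr6:50566570-50566719, chr15:102671048-102671197, chr2:90904722-90904871, chr9:50603850-50603999 and chr11:96075632-96075781, in the order given.
Cycs: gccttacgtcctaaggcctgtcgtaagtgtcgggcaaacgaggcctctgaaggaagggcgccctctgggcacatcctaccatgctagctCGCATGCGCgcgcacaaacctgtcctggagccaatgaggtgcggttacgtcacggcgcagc
Atp5g2: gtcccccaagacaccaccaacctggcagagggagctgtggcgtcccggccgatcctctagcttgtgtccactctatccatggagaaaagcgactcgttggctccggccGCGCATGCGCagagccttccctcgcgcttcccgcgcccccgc
Ndufs3: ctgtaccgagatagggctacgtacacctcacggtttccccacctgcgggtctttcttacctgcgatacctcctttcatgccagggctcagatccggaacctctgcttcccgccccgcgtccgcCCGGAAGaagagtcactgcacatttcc
Sdhd: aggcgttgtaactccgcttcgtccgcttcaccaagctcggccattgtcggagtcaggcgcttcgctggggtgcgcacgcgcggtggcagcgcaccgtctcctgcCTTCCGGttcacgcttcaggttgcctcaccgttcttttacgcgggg
Atp5g1: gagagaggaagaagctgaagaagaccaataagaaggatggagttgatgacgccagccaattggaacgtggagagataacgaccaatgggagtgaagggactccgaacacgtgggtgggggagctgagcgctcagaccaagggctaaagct

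Respiratory chain transcripts were bright in all 3 cultures. Signals are log2 values, so a difference of 1 means a ratio of 2. Of the 82 genes, 73 lay above the median of all probe sets on every array, as did 8385 of the 18193 genes, and 1, the testis isoform Cox7b2, lay at or under it on every array. The median signal of the 82 genes was 10.21, 10.01 and 10.87 on syngeneic replicates 1, 2 and 3, 10.69, 9.64 and 10.90 on the allogeneic and 10.70, 10.12 and 10.54 on the anti-CD3/CD28 replicates. Array medians ran from 4.58 to 5.67. Within the respiratory chain, the replicate number accounted for 82.9% of the variance over the 9 arrays and the group for 5.32%, close to the 85.0% and 6.59% over all genes. Differences were therefore read within each number as well as between group means. Within a number many genes had exactly equal signals on both arrays compared, so a difference of 0.00 may be such an equality and not a measurement.

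T cell markers were bright on all 9 arrays, and number 2 stood apart in stromal markers and genes of fat cells. The 11 T cell markers measured lay above the array median on every array, with mean signals between 9.61 and 11.07. The 5 stromal markers averaged 10.49, 8.72 and 8.29 on the syngeneic, allogeneic and anti-CD3/CD28 arrays of number 2, against 4.04 to 4.43 on the other 6 arrays. Genes of fat cells, listed after the values were seen, followed the same arrays: Adipoq, the hormone adiponectin, stood at 11.49, 9.51 and 9.22 in number 2 and at 4.35 or below elsewhere. The 10 macrophage markers averaged 6.69, 7.95 and 6.70 on the syngeneic arrays, against 5.23, 6.13 and 5.45 on the allogeneic and 5.14, 6.04 and 4.30 on the anti-CD3/CD28 arrays. The 10 dendritic cell markers averaged 8.72, 9.08 and 10.11 after syngeneic, 8.53, 8.37 and 10.045 after allogeneic and 8.38, 8.004 and 8.17 after anti-CD3/CD28 culture. The 5 B cell markers ranged from 6.39 to 9.04, the 7 granulocyte markers from 4.27 to 6.30 and the 4 erythroid markers from 3.74 to 5.38 in mean signal. The part of these cells in the differences between cultures was not tested.

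No respiratory chain gene passed the test between any pair of cultures. With limma and Benjamini-Hochberg adjustment over 18193 genes, 0 of the 82 genes had an adjusted p under 0.05 in each of the 3 comparisons. The same held for all genes (0%), both without a block and with the replicate number as a fixed block. A random block also called 0 members. Among all genes it called 1 between allogeneic and syngeneic culture, 30 between anti-CD3/CD28 and syngeneic culture and 0 between the stimulated cultures. The block named below is the fixed one. At an unadjusted p under 0.05 there were 0 members without the block in each comparison, where all genes gave 0.148% between allogeneic and syngeneic culture, 0.857% between anti-CD3/CD28 and syngeneic culture and 0.132% between the stimulated cultures. With the block, 3, 1 and 0 members had an unadjusted p under 0.05, which is 3.66%, 1.22% and 0% of them, against 4.53%, 6.79% and 1.13% of all genes. The median SE of a member's log2 difference was 0.54, or 0.26 with the block, against 0.64 and 0.16 over all genes. The values below describe what the arrays held, and none of them is a called change. The comparisons share arrays, since each group enters 2 of them, so their values stand side by side and are not independent of each other.

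Between allogeneic and syngeneic cultures, the chain as a whole stood higher in number 1, lower in number 2 and about level in number 3. The median log2 difference over the 82 genes was 0.30, −0.28 and 0.07 within numbers 1, 2 and 3, where the median over all genes was 0.00 in each. In number 1, 61 genes were higher and 13 lower. In number 2, 17 were higher and 61 lower, and in number 3 the counts were 50 and 28. From the group means, 44 of the 82 genes (53.7%) stood higher, against 57% of all genes, with a median of 0.01 against 0.03 over all genes. Exact equalities hold many dim genes at 0, so the 8385 genes above the array median on every array (bright genes) serve as a further background. Of these 48.0% stood higher, with a median of −0.01 and of 0.00 within each number. The direction turned with single arrays: without allogeneic replicate 2, 72 genes stood higher with a median of 0.36, and without allogeneic replicate 3 only 25 did. Leaving out all 3 arrays of a number was chosen after the data were seen. Without number 2, the number with high stromal markers, 62 genes stood higher with a median of 0.20. Without number 1 the count was 29 with a median of −0.08, and without number 3 it was 40 with a median of −0.002. All 3 differences lay above 0 in 8 members (9.76%) and below 0 in 5 (6.10%), against 7.29% and 7.96% of all genes and 9.64% and 13.2% of the bright genes. In 0 members did the arrays of both groups not overlap, against 0.192% (higher) and 0.451% (lower) of all genes.

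By complex, complex III had the widest swing. Its 9 genes had medians of 0.56, −0.28 and 0.38 in numbers 1 to 3, with 8 genes higher in number 1 and all 9 lower in number 2. The 33 genes of complex I had medians of 0.21, −0.31 and 0.07, and 28 of them were lower in number 2. Complex IV (17 genes) had medians of 0.20, −0.36 and 0.04, and complex V (17 genes) 0.50, −0.19 and 0.06. The 4 genes of complex II had medians of 0.20, −0.33 and −0.13. By its median, each complex thus stood higher in number 1 and lower in number 2.

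**Figure D1:**
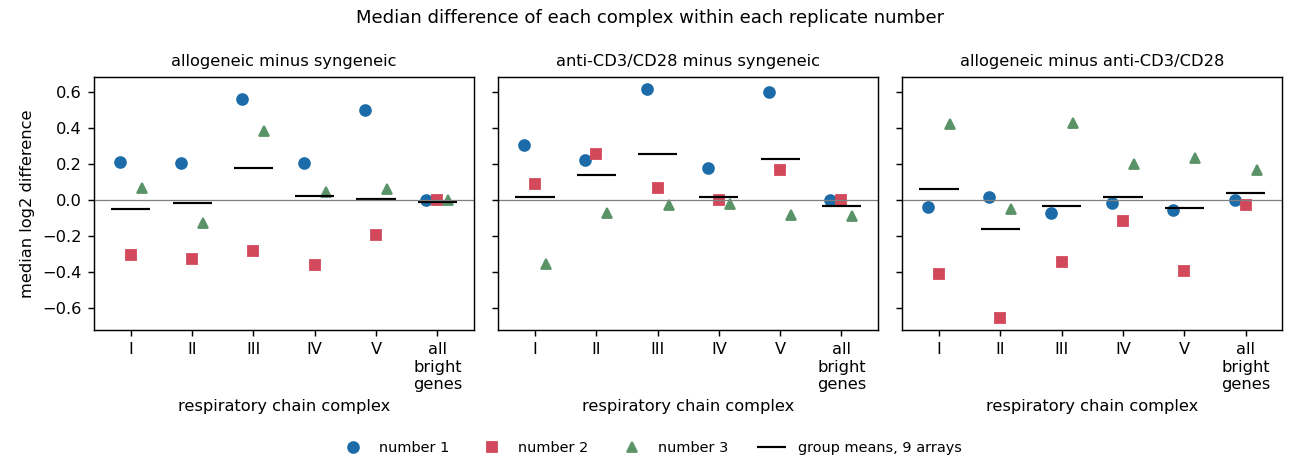
Median log2 difference (vertical axis) of the genes of complexes I to V and of all 8385 genes above the array median on every array (bright genes), in the 3 comparisons (panels). Coloured symbols give the median within replicate numbers 1, 2 and 3, and black bars the median of the differences of group means; in the allogeneic minus syngeneic panel every complex lies above 0 in number 1 and below 0 in number 2.

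Among the members higher in all 3 numbers after allogeneic culture, Atp5g1 had the largest mean difference and is described with the c subunit genes below. Ndufb1, a small accessory subunit of complex I, stood at 5.03, 5.48 and 5.90 after syngeneic, 5.18, 6.47 and 6.49 after allogeneic and 5.18, 5.94 and 5.65 after anti-CD3/CD28 culture. Each allogeneic array was above its syngeneic partner, and the groups overlapped. The mean difference was 0.58 ± 0.61 (SE), with 0.15, 0.99 and 0.59 within the numbers. With the block its unadjusted p was 0.0375 and its adjusted p in limma 0.709. It did not exceed the array median on 1 array, so the size there is a bound. Atp5mpl, a small membrane protein of the ATP synthase, stood at 8.71, 9.62 and 11.01 after syngeneic, 9.80, 9.69 and 11.05 after allogeneic and 10.04, 9.62 and 10.67 after anti-CD3/CD28 culture. Its mean difference of 0.40 ± 0.61 came mostly from number 1 (1.08, 0.07 and 0.05). Ndufc1, another accessory subunit of complex I, differed by 0.36 ± 0.46, from 11.03, 10.54 and 11.27 after syngeneic to 11.78, 10.63 and 11.51 after allogeneic culture. Its other probe set did not share the sign.

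Among the members lower in all 3 numbers, Cox7a1 had the largest mean difference and is described with the tissue isoforms. Sdha, the flavoprotein of complex II that oxidises succinate and the brightest gene of that complex, stood at 11.81, 11.12 and 11.19 after syngeneic, 11.68, 10.20 and 10.80 after allogeneic and 11.64, 11.25 and 11.15 after anti-CD3/CD28 culture. It was lower on each allogeneic array than on its syngeneic partner, most of all in number 2. It differed by −0.48 ± 0.40 on average (−0.13, −0.93 and −0.39). Of its 4 probe sets 3 shared the sign, 1 of them dim (mean signal 4.18, difference −0.03). The other bright probe set differed by −0.21 on average but was not lower in each number. From syngeneic to allogeneic culture it was level at 10.04 in number 1, fell from 10.31 to 9.43 in number 2 and rose from 10.95 to 11.19 in number 3. The iron-sulphur subunit Sdhb differed by 0.00, −0.66 and 0.30 in the same numbers, and the anchors Sdhc and Sdhd by 0.50, 0.01 and −0.11 and by 0.41, 0.00 and −0.15. On their brightest probe sets the complex II genes thus did not move as a unit within a number. The other probe set of Sdhc stood at 7.22, 8.48 and 9.21 after syngeneic and 7.82, 6.76 and 9.17 after allogeneic culture. That of Sdhd stood at 8.38, 8.44 and 10.23 and at 9.84, 8.24 and 10.18. In number 2 both were thus lower after allogeneic culture, so the reading there depends on the probe set. Ndufb11 of complex I differed by −0.17 ± 0.42 and Cox7c of complex IV by −0.24 ± 0.85. Ndufb11 stood at 11.85, 11.07 and 12.08 after syngeneic, 11.76, 10.70 and 12.04 after allogeneic and 11.85, 10.97 and 11.85 after anti-CD3/CD28 culture. Cox7c stood at 4.85, 6.66 and 6.42 after syngeneic, 4.32, 6.55 and 6.34 after allogeneic and 4.32, 6.84 and 6.27 after anti-CD3/CD28 culture, not above the array median on 2 arrays. Both differences were smaller than their SE from the fit without the replicate block, which takes in the spread between numbers.

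Between anti-CD3/CD28 and syngeneic cultures, the chain stood higher in number 1, slightly higher in number 2 and lower in number 3. The median difference over the 82 genes was 0.39, 0.08 and −0.16 in numbers 1, 2 and 3, where all genes had a median of 0.00 in each. The counts of higher and lower genes were 64 and 10, 48 and 23, and 20 and 59. From the group means, 51 genes (62.2%) stood higher, against 50.4% of all genes, with a median of 0.09 against 0.00. Of the bright genes 45.4% stood higher, with a median of −0.03 and of 0.00, 0.00 and −0.09 within the numbers. Leaving out single arrays moved the members' count between 39 and 59. Without the arrays of number 2 it was 47, with a median of 0.05. Without those of number 1 it was 38 with a median of −0.05, and without those of number 3 it was 67 with a median of 0.25. All 3 differences lay above 0 in 13 members (15.9%), against 7.8% of all genes and 11% of the bright genes, and below 0 in 4 (4.88%), against 9.15% and 14.4%. The groups did not overlap for 1 member (1.22%), against 0.412% of all genes on the higher side, and for 0 members on the lower side, against 1.52%.

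The 13 members that were higher in all 3 numbers after anti-CD3/CD28 culture included 6 of the 17 core subunits. Ndufs1, the largest core subunit of complex I with 3 iron-sulphur clusters, stood at 7.49, 8.56 and 9.11 after syngeneic, 8.01, 7.70 and 9.18 after allogeneic and 8.06, 9.003 and 10.09 after anti-CD3/CD28 culture. Each anti-CD3/CD28 array lay above its syngeneic partner, and the groups overlapped. The mean difference was 0.66 ± 0.69, with 0.57, 0.44 and 0.98 within the numbers. Uqcrc1, a core protein of complex III, stood at 8.21, 8.15 and 9.47 after syngeneic, 8.77, 7.50 and 10.11 after allogeneic and 8.82, 8.53 and 10.21 after anti-CD3/CD28 culture. It was also higher in each number, by 0.62, 0.37 and 0.74, with a mean of 0.57 ± 0.73. Atp5b, the catalytic beta subunit of the ATP synthase, stood at 10.85, 10.22 and 11.70 after syngeneic, 11.35, 9.65 and 11.75 after allogeneic and 11.40, 10.94 and 11.85 after anti-CD3/CD28 culture. Its mean difference was 0.47 ± 0.55 (0.56, 0.72 and 0.15). The other core subunits of the 13 were Ndufs3 (0.71, 0.56 and 0.02), Uqcrc2 (0.06, 0.46 and 0.06) and Cyc1 (0.67, 0.24 and 0.00).

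Ndufa12, an accessory subunit of complex I, was the member whose groups did not overlap. It stood at 10.29, 10.03 and 10.51 after syngeneic, 10.83, 9.93 and 10.64 after allogeneic and 11.15, 10.57 and 10.53 after anti-CD3/CD28 culture. The lowest anti-CD3/CD28 signal, in number 3, exceeded the highest syngeneic signal, also in number 3, by only 0.02. On average it differed by 0.48 ± 0.40 (0.86, 0.54 and 0.02), and all 4 probe sets shared the sign. Ndufa9 and Ndufa10, also accessory subunits of complex I, were higher in each number. Ndufa9 stood at 9.36, 8.56 and 10.44 after syngeneic, 9.76, 7.73 and 10.44 after allogeneic and 9.90, 9.22 and 10.47 after anti-CD3/CD28 culture, and Ndufa10 at 9.63, 9.78 and 10.75 after syngeneic, 9.89, 9.06 and 10.86 after allogeneic and 10.12, 9.97 and 10.998 after anti-CD3/CD28 culture. Their mean differences were 0.41 ± 0.72 and 0.31 ± 0.54, each under its SE. That SE comes from the fit without the replicate block and takes in the spread between numbers.

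On their brightest probe sets, the members lower in all 3 numbers after anti-CD3/CD28 culture were Cox7a1, Cox7a2l, Uqcrh and Atp5h. Cox7a2l, the supercomplex factor, stood at 12.77, 11.51 and 11.86 after syngeneic, 12.70, 11.80 and 11.25 after allogeneic and 12.61, 11.43 and 11.06 after anti-CD3/CD28 culture. It was lowest relative to syngeneic culture in number 3, with −0.16, −0.09 and −0.80 and a mean of −0.35 ± 0.48. All 3 probe sets shared the sign of the mean, but the dimmer ones were level in number 2, at 10.83 and 9.83. Uqcrh, the hinge protein that docks cytochrome c at complex III and the brightest gene of that complex, stood at 11.97, 10.84 and 11.87 after syngeneic, 11.52, 10.65 and 12.14 after allogeneic and 11.77, 10.64 and 11.29 after anti-CD3/CD28 culture. Its mean difference was −0.33 ± 0.46 (−0.20, −0.20 and −0.58). The other probe set of Uqcrh was level at 10.81 and 9.45 in numbers 1 and 2 and fell from 11.64 to 11.51 in number 3. Atp5h, the d subunit of the ATP synthase stalk and the brightest gene of complex V, stood at 13.34, 11.89 and 11.94 after syngeneic, 13.32, 11.70 and 11.70 after allogeneic and 13.32, 11.86 and 11.68 after anti-CD3/CD28 culture. It differed by only −0.10 ± 0.54 from syngeneic culture and by −0.15 ± 0.54 between allogeneic and syngeneic culture, with all 3 numbers below 0 in both. The other probe set of Atp5h was not lower in each number in either comparison. It stood at 11.65, 9.91 and 11.50 after syngeneic, 11.66, 9.60 and 11.58 after allogeneic and 11.66, 10.08 and 11.07 after anti-CD3/CD28 culture.

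Apart from the tissue isoforms Cox8b and Cox7a1, which differed by −2.33 and −1.45 in number 2, the largest anti-CD3/CD28 deficits lay in number 3. Ndufa1, a small membrane subunit that complex I needs for assembly, stood at 10.76, 10.50 and 11.30 after syngeneic, 10.97, 10.13 and 10.99 after allogeneic and 10.97, 10.50 and 9.52 after anti-CD3/CD28 culture. The anti-CD3/CD28 array of number 3 was the lowest of the 9 arrays, 1.77 below its syngeneic partner, while the others of that group were level or higher. Cox6c, a small subunit of complex IV, stood at 12.26, 11.21 and 11.88 after syngeneic, 12.59, 11.22 and 11.60 after allogeneic and 12.86, 11.21 and 10.80 after anti-CD3/CD28 culture, with differences of 0.60, 0.00 and −1.08. Ndufv2 and Ndufb3 of complex I differed by −1.38 and −1.24 in number 3. In the same number Ndufs1 and Uqcrc1 were higher by 0.98 and 0.73. On these 2 arrays of number 3 the T cell markers averaged 10.70 after syngeneic and 11.07 after anti-CD3/CD28 culture, dendritic cell markers 10.11 and 8.17, and macrophage markers 6.70 and 4.30. Their part in the differences was not tested.

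Between allogeneic and anti-CD3/CD28 cultures, the chain was close to level in number 1, lower in number 2 and higher in number 3. The median difference over the 82 genes was −0.04, −0.32 and 0.32, where all genes had a median of 0.00 in each number and the bright genes 0.00, −0.03 and 0.17. In number 3, 62.0% of the bright genes were higher as well. The counts of higher and lower genes were 18 and 51, 17 and 61, and 64 and 12. From the group means, 41 genes (50%) stood higher, against 60.9% of all genes and 56.8% of the bright genes. The members' count was 69, with a median of 0.34, without allogeneic replicate 2. It was 25 without allogeneic replicate 3 and 24 without anti-CD3/CD28 replicate 2. Without the arrays of number 2 it was 60, with a median of 0.12. Without those of number 1 it was 46 with a median of 0.07, and without those of number 3 it was 14 with a median of −0.21. All 3 differences lay above 0 in 3 members (3.66%), against 4.39% of all genes and 6.92% of the bright genes, and below 0 in 5 (6.10%), against 2.58% and 4.46%. In 0 members did the groups not overlap, against 0.269% (higher) and 0.055% (lower) of all genes.

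The 5 members lower in each number after allogeneic than after anti-CD3/CD28 culture were Ndufs1, Ndufa9, Atp5b, Ndufa10 and Uqcrc1. Their mean differences were −0.75 ± 0.69, −0.56 ± 0.72, −0.48 ± 0.55, −0.43 ± 0.54 and −0.40 ± 0.73. In each, number 2 gave the largest part: Ndufs1 differed by −0.04, −1.31 and −0.91 and Ndufa9 by −0.15, −1.49 and −0.04. On the higher side, Ndufa2, an accessory subunit of complex I, stood at 12.15, 11.39 and 11.63 after syngeneic, 12.22, 11.39 and 11.40 after allogeneic and 12.21, 11.17 and 10.85 after anti-CD3/CD28 culture, with 0.02, 0.21 and 0.55 and a mean of 0.26 ± 0.40. Cox7a2l differed by 0.22 ± 0.48. Cox8a, the ubiquitous isoform of the smallest subunit of complex IV, stood at 9.003, 8.49 and 10.46 after syngeneic, 9.20, 8.57 and 11.07 after allogeneic and 9.18, 8.52 and 10.59 after anti-CD3/CD28 culture. Its mean difference from anti-CD3/CD28 culture was 0.19 ± 0.76, and it was also higher in each number against syngeneic culture (0.20, 0.07 and 0.61).

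**Figure D2:**
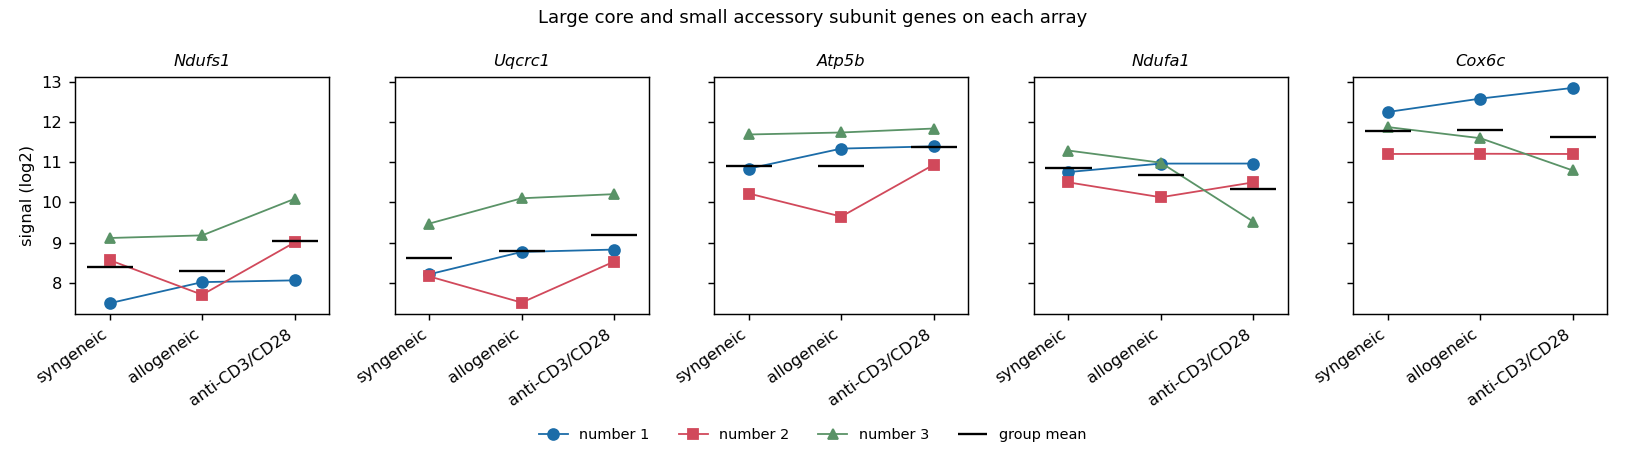
Log2 signal (vertical axis) of 3 genes of large core subunits (Ndufs1, Uqcrc1, Atp5b) and 2 of small accessory subunits (Ndufa1, Cox6c) on each of the 9 arrays, by culture, with lines joining arrays of the same replicate number and black bars at group means. Ndufs1, Uqcrc1 and Atp5b dip on the allogeneic array of number 2, and Ndufa1 and Cox6c on the anti-CD3/CD28 array of number 3.

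Core and accessory subunits were set side by side after these values had been seen, so their contrast is a description. The 17 core subunits are 6 of complex I, 2 of complex II, 4 of complex III and 5 of the ATP synthase head. The 53 accessory genes take in the complex II anchors Sdhc and Sdhd and leave out tissue isoforms, c subunit genes, Cycs and Cox7a2l. In number 2 all 17 core genes were lower after allogeneic than after syngeneic culture, with a median difference of −0.65, and 40 of the 53 accessory genes were lower, with a median of −0.26. Against anti-CD3/CD28 culture of number 2, all 17 core genes were again lower, with a median of −0.83, and 39 accessory genes, with a median of −0.27. After quantile normalization 15 of the 17 core genes were lower than in syngeneic culture and 17 lower than in anti-CD3/CD28 culture, with medians of −0.48 and −0.63. The T cell markers of number 2 averaged 9.62 on the syngeneic, 9.61 on the allogeneic and 10.14 on the anti-CD3/CD28 array. Stromal markers averaged 10.49, 8.72 and 8.29 on the same arrays, and their part in the difference was not tested.

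The core genes behind that count were spread over the complexes. Uqcrc2, the second core protein of complex III, stood at 11.37, 10.73 and 11.73 after syngeneic, 11.43, 9.64 and 11.58 after allogeneic and 11.43, 11.19 and 11.79 after anti-CD3/CD28 culture, and its allogeneic array of number 2 was 1.09 below syngeneic and 1.55 below anti-CD3/CD28 culture. Ndufv1, the subunit that binds NADH, stood at 9.60, 10.34 and 10.46 after syngeneic, 10.32, 9.25 and 10.54 after allogeneic and 10.20, 10.04 and 10.68 after anti-CD3/CD28 culture, with −1.08 and −0.79 in the same comparisons. Uqcrfs1, the Rieske iron-sulphur protein, stood at 9.15, 9.20 and 9.64 after syngeneic, 9.71, 8.67 and 10.08 after allogeneic and 9.91, 9.48 and 9.64 after anti-CD3/CD28 culture, with −0.53 and −0.82. Atp5a1, the alpha subunit of the ATP synthase, differed less on its brightest probe set, by −0.34 and −0.51. A dimmer probe set of Atp5a1 had wider gaps, at 9.63, 8.90 and 10.18 on the syngeneic, allogeneic and anti-CD3/CD28 arrays of number 2. Its remaining probe set stood at 11.86, 11.55 and 11.95 on the same arrays.

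In numbers 1 and 3 the core and accessory genes behaved otherwise. In number 1 both stood higher against syngeneic culture, by medians of 0.52 and 0.30 after allogeneic and 0.57 and 0.39 after anti-CD3/CD28 culture. In number 3 the core median was 0.08 and the accessory median 0.06 between allogeneic and syngeneic culture. Between anti-CD3/CD28 and syngeneic culture of number 3, 46 of the 53 accessory genes were lower with a median of −0.39, while the core median was −0.03, or 0.04 with arrays centred on their medians. In number 2 of that comparison 16 of the 17 core genes were higher with a median of 0.37, and the accessory median was 0.00. The core genes thus stood above the accessory genes in the anti-CD3/CD28 against syngeneic difference in each number, by medians, with quantile normalized and with centred arrays as well.

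**Figure D3:**
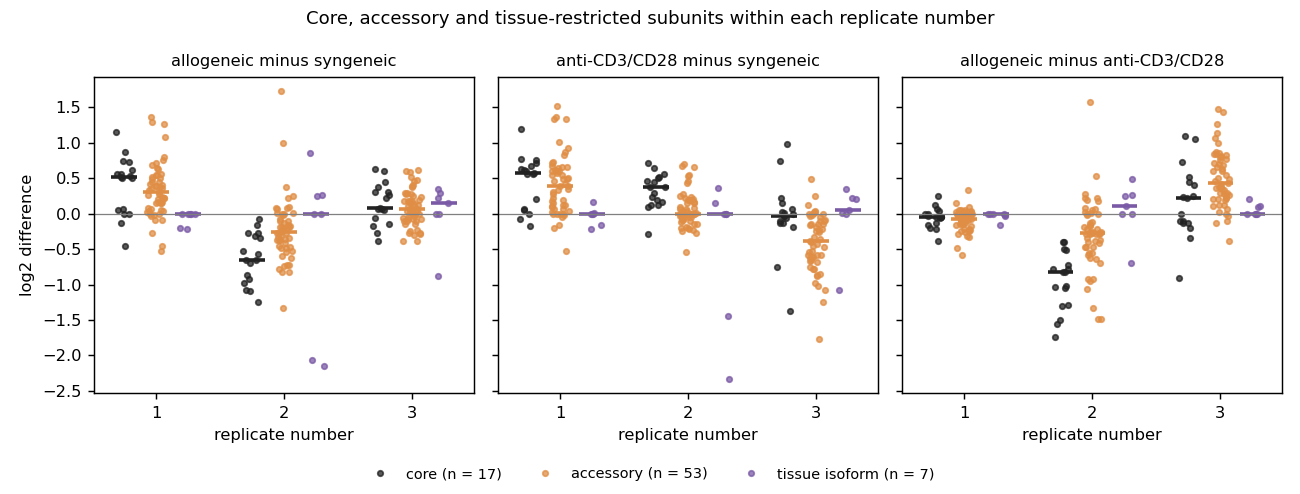
Log2 difference (vertical axis) of each core, accessory and tissue-isoform gene within each replicate number (horizontal axis) in the 3 comparisons (panels), with a bar at each median. In number 2 all 17 core genes lie below 0 in both comparisons of the allogeneic array.

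The c subunit of the ATP synthase, which forms the rotating ring in the membrane, is encoded by 3 genes, Atp5g1, Atp5g2 and Atp5g3, that give the same mature protein with different import peptides. Atp5g1, whose transcript is known to vary most between tissues and states of growth, stood at 6.15, 7.35 and 10.32 after syngeneic, 7.93, 8.24 and 11.46 after allogeneic and 8.12, 8.48 and 10.82 after anti-CD3/CD28 culture. Each allogeneic and each anti-CD3/CD28 array lay above the syngeneic array of its number, while numbers 1 and 2 lay far below number 3. The mean difference was 1.27 ± 1.15 between allogeneic and syngeneic culture (1.78, 0.89 and 1.14) and 1.203 ± 1.15 between anti-CD3/CD28 and syngeneic culture (1.97, 1.13 and 0.50). These were the largest mean differences of any member in both comparisons. With the replicate block the unadjusted p was 0.00737 and 0.00927 and the adjusted p in limma 0.709 and 0.685, so neither was called. The other probe set of Atp5g1 was dim, between 3.26 and 4.80, and differed by −0.06 and −0.01. Between allogeneic and anti-CD3/CD28 culture Atp5g1 differed by 0.07 ± 1.15.

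Atp5g2 stood at 7.31, 7.52 and 10.82 after syngeneic, 8.47, 8.07 and 10.82 after allogeneic and 8.72, 8.24 and 10.82 after anti-CD3/CD28 culture. It was higher than syngeneic culture in numbers 1 and 2 and exactly level in number 3, with mean differences of 0.57 ± 1.02 and 0.71 ± 1.02. Atp5g3 stood at 11.88, 10.31 and 11.84 after syngeneic, 12.19, 9.85 and 12.01 after allogeneic and 12.23, 10.48 and 11.78 after anti-CD3/CD28 culture, with mean differences of 0.01 ± 0.65 and 0.15 ± 0.65. The differences of the c subunit genes thus ran from the largest of the chain in Atp5g1 to about level in Atp5g3. Among their promoter windows, the NRF1 core lay in that of Atp5g2, while Atp5g1 and Atp5g3 had none of the 3 motifs. Whether the motifs bear on the differences was not tested.

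**Figure D4:**
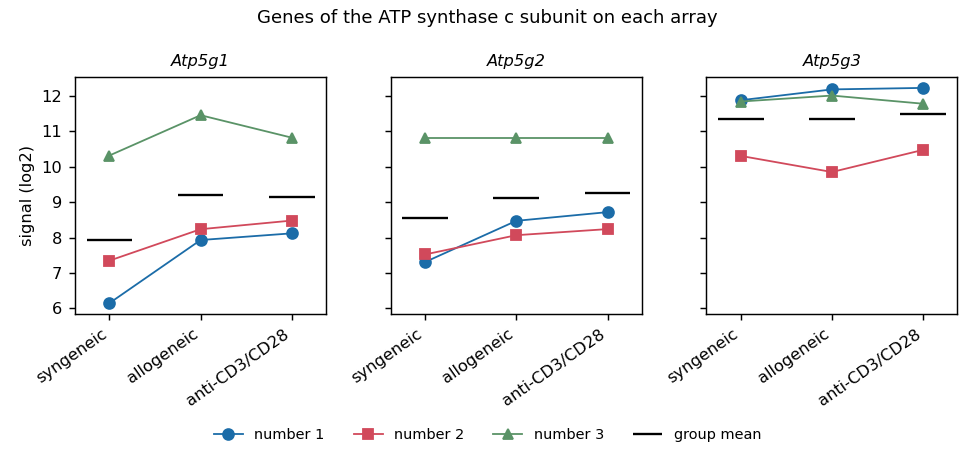
Log2 signal (vertical axis) of the 3 genes of the ATP synthase c subunit on each of the 9 arrays, by culture, with lines joining arrays of the same replicate number and black bars at group means. Atp5g1 is lowest on the syngeneic array of each number, and Atp5g2 is level at 10.82 on the arrays of number 3.

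Of the 7 tissue-restricted isoforms of complex IV, Cox6a2 exceeded the array median on every array and Cox7b2 on none. All but Cox7b2 had their highest mean signal in number 2, where array medians were also higher (5.60 to 5.67, against 4.58 to 4.93 elsewhere). Cox7a1, the isoform of heart, skeletal muscle and brown fat, stood at 4.85, 7.04 and 4.62 after syngeneic, 4.64, 4.90 and 3.74 after allogeneic and 4.64, 5.59 and 3.54 after anti-CD3/CD28 culture. It was highest on the syngeneic array of number 2 and did not exceed the array median on 5 arrays, the other two of number 2 among them, so its differences are bounds there. The mean difference was −1.08 ± 0.75 between allogeneic and syngeneic culture (−0.21, −2.15 and −0.88), the lowest of any member, and −0.91 ± 0.75 for anti-CD3/CD28 culture (−0.21, −1.45 and −1.08). With the block its unadjusted p was 0.0294 in the first comparison, with an adjusted p of 0.709 in limma. Cox8b, the isoform of muscle and brown fat, stood at 4.90, 9.91 and 3.74 after syngeneic, 4.70, 7.84 and 3.96 after allogeneic and 4.73, 7.58 and 3.96 after anti-CD3/CD28 culture. The 3 arrays of number 2 were thus far above the others, and syngeneic culture was the highest of them.

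Fat genes and some muscle genes were likewise highest in number 2. Ucp1, the uncoupling protein of brown fat, stood at 8.22, 6.65 and 6.72 on the syngeneic, allogeneic and anti-CD3/CD28 arrays of number 2 and between 4.35 and 4.63 elsewhere. Fabp4, a fatty acid carrier of fat cells, stood at 12.60, 12.35 and 11.99 in number 2 and at 5.86 or below elsewhere. Among 6 muscle genes, myoglobin, Mb, stood at 6.80, 7.06 and 6.82 in number 2 and between 4.66 and 5.04 elsewhere, and the muscle creatine kinase Ckm at 5.76, 6.08 and 5.78 against 4.00 to 4.97. The muscle actin Acta1 reached at most 5.31, also in number 2, where it lay under the array median on all 3 arrays. The heart genes Myh6, Myh7 and Tnnt2 did not peak in that number. The part of the higher array medians of number 2 in the peaks of dim genes was not tested. Within number 2, Cox7a1 was above the array median on the syngeneic array only, while Adipoq and Fabp4 were bright on all 3. Whether RNA of fat or muscle tissue entered the isoform signals was not tested. Without the 3 arrays of number 2 both isoforms lay between 3.54 and 4.90.

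**Figure D5:**
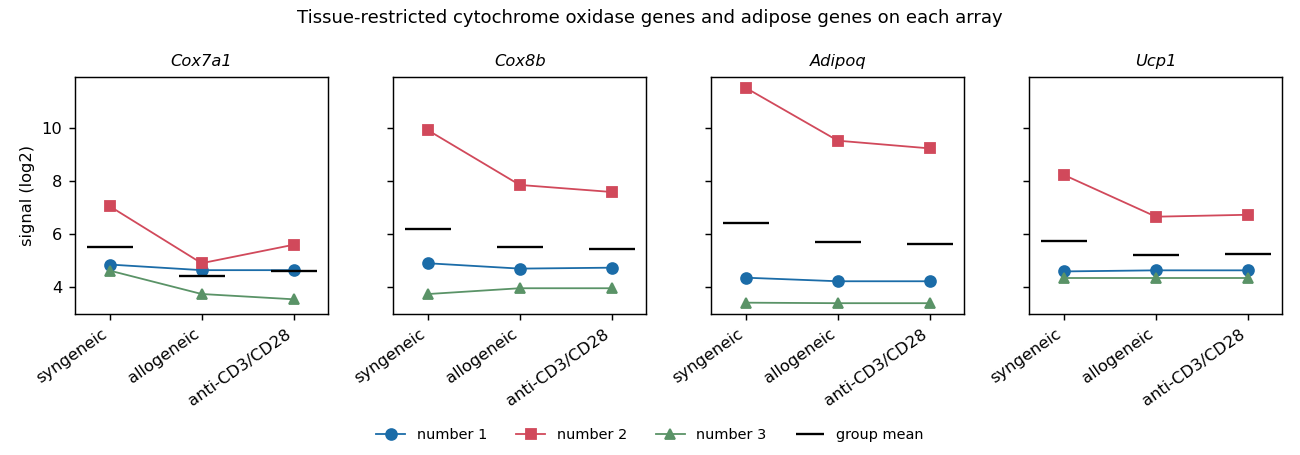
Log2 signal (vertical axis) of 2 tissue isoforms of complex IV (Cox7a1, Cox8b) and of 2 genes of fat cells (Adipoq, Ucp1) on each of the 9 arrays, by culture, with lines joining arrays of the same replicate number and black bars at group means. All 4 genes are highest on the syngeneic array of number 2, and Cox8b, Adipoq and Ucp1 are low on all arrays of numbers 1 and 3.

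The other isoform pairs of complex IV held a bright ubiquitous and a dimmer restricted gene. Cox4i1, the ubiquitous subunit 4, stood at 10.34, 10.57 and 11.13 after syngeneic, 10.97, 10.03 and 10.75 after allogeneic and 11.06, 10.51 and 10.46 after anti-CD3/CD28 culture, with mean differences of −0.09 ± 0.40 and 0.00 ± 0.40 against syngeneic culture. Its lung isoform Cox4i2 ranged from 4.47 to 5.73 and did not exceed the array median on 4 arrays. Cox6a1 stood at 11.07, 11.57 and 12.29 after syngeneic, 11.28, 11.20 and 12.47 after allogeneic and 11.46, 11.32 and 12.27 after anti-CD3/CD28 culture, and the muscle isoform Cox6a2 ranged from 5.45 to 7.33. Cox6b1 stood at 10.44, 11.61 and 12.09 after syngeneic, 10.98, 11.24 and 12.03 after allogeneic and 10.93, 11.46 and 11.44 after anti-CD3/CD28 culture, and the testis isoform Cox6b2 ranged from 4.56 to 7.39, with its highest 3 values in number 2. Cox7a2, the ubiquitous partner of Cox7a1, stood at 11.26, 10.74 and 12.13 after syngeneic, 11.89, 10.28 and 12.05 after allogeneic and 11.80, 10.70 and 11.28 after anti-CD3/CD28 culture, with mean differences of 0.03 ± 0.51 and −0.12 ± 0.51. The testis isoforms Cox7b2 and Cox8c ranged from 2.43 to 4.11 and from 4.44 to 6.26. Cox7b, the ubiquitous partner of Cox7b2, had no probe set among the members. The brightest gene of complex IV, Cox5b, stood at 12.29, 11.90 and 12.53 after syngeneic, 12.72, 11.41 and 12.57 after allogeneic and 13.30, 11.67 and 11.95 after anti-CD3/CD28 culture, with 1.003, −0.23 and −0.59 between anti-CD3/CD28 and syngeneic culture. The brightest of all, Ndufb7 of complex I, stood at 13.91, 11.94 and 12.19 after syngeneic, 13.94, 12.20 and 12.30 after allogeneic and 14.03, 12.02 and 12.03 after anti-CD3/CD28 culture. On this probe set it differed by at most 0.27 between arrays of 1 number. Its dimmer probe set differed more, at 10.05, 10.68 and 9.60 on the syngeneic, allogeneic and anti-CD3/CD28 arrays of number 3.

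Cytochrome c, which carries electrons from complex III to complex IV and starts apoptosis when released, was read through Cycs at 10.61, 10.56 and 11.03 after syngeneic, 11.70, 10.48 and 11.21 after allogeneic and 11.89, 10.92 and 10.21 after anti-CD3/CD28 culture. It was higher than syngeneic culture by 1.10 and 1.28 in number 1, but the anti-CD3/CD28 array of number 3 was 0.81 lower. The mean differences were 0.40 ± 0.46 and 0.27 ± 0.46. Cyc1, the haem subunit of complex III that hands electrons to cytochrome c, stood at 9.50, 9.59 and 10.89 after syngeneic, 10.24, 9.43 and 11.11 after allogeneic and 10.17, 9.83 and 10.89 after anti-CD3/CD28 culture. Its mean differences were 0.27 ± 0.55 and 0.30 ± 0.55, with number 1 the largest in both.

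Reported targets of miR-210, a microRNA induced by low oxygen that is known for restraining respiration, were included because the RNA was recovered with AGO. RefSeq gives its mature strand on GRCm38.p6 at chr7:141221407-141221428, minus strand, with the seed (bases 2 to 8) in capitals.
mmu-miR-210-3p: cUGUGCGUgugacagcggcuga
Among the 4 targets, Iscu, the scaffold on which iron-sulphur clusters are built and no member of the chain, stood at 9.73, 8.50 and 10.64 after syngeneic, 8.40, 8.18 and 10.74 after allogeneic and 8.47, 8.24 and 9.05 after anti-CD3/CD28 culture. It was lower on each anti-CD3/CD28 array than on its syngeneic partner, by −1.26, −0.26 and −1.59, with a mean of −1.04 ± 0.74. After allogeneic culture it was lower than after syngeneic culture in numbers 1 and 2 and higher in number 3 (−1.33, −0.32 and 0.11). Ndufa4, a subunit of complex IV, stood at 11.47, 10.56 and 11.15 after syngeneic, 11.71, 9.84 and 11.42 after allogeneic and 12.05, 10.76 and 11.13 after anti-CD3/CD28 culture, with −0.07 ± 0.51 and 0.25 ± 0.51 against syngeneic culture. Sdhd stood at 9.90, 9.48 and 10.002 after syngeneic, 10.31, 9.48 and 9.86 after allogeneic and 10.29, 9.76 and 9.86 after anti-CD3/CD28 culture, with 0.09 ± 0.43 and 0.17 ± 0.43. Cox10, which makes a precursor of the haem A of complex IV, stood at 5.27, 6.12 and 8.05 after syngeneic, 5.36, 5.67 and 8.45 after allogeneic and 5.36, 6.27 and 7.47 after anti-CD3/CD28 culture, with 0.01 ± 0.96 and −0.11 ± 0.96. The 4 genes thus did not share a direction, 2 of them standing higher and 2 lower in each comparison.

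The pathways that build and feed the chain were counted from lists, and 0 of their genes were called in any comparison. Mitochondrial ribosomal proteins, which make the subunits encoded in the mitochondrial genome, stood higher in both stimulated cultures than in syngeneic culture. Of 76 such genes, 60 were higher after allogeneic culture with a median of 0.22 (0.38, −0.01 and 0.32 within numbers 1 to 3), and 61 after anti-CD3/CD28 culture with a median of 0.24 (0.49, 0.38 and −0.17). All 3 numbers lay above 0 for 22 of the 76 (28.9%) and for 18 (23.7%), against 7.29% and 7.8% of all genes and 9.64% and 11% of the bright genes. Mrpl18 of the large subunit stood at 7.57, 8.70 and 10.07 after syngeneic, 9.55, 9.60 and 10.86 after allogeneic and 9.72, 9.88 and 10.40 after anti-CD3/CD28 culture, with mean differences of 1.23 ± 0.64 and 1.22 ± 0.64, higher than syngeneic culture in each number. Mrpl42 stood at 8.45, 9.14 and 11.12 after syngeneic, 9.88, 9.95 and 11.89 after allogeneic and 10.02, 10.67 and 11.44 after anti-CD3/CD28 culture, with 0.996 ± 0.72 and 1.14 ± 0.72, also higher in each number. Between allogeneic and anti-CD3/CD28 culture the 76 genes had a median of −0.03 (−0.05, −0.55 and 0.57), with Mrpl17 at −0.76 ± 0.70 and Mrpl45 at −0.92 ± 0.87.

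Assembly factors (44 of 46 measured) had medians of 0.07, 0.00 and 0.11 in the 3 comparisons, in the order used above. The complex III chaperone Bcs1l was among the 5 higher in each number after allogeneic culture, with 0.95, 0.99 and 0.19 and a mean of 0.71 ± 0.78. Ndufaf4, which assembles complex I, differed by 0.54 ± 0.59 (0.68, 0.47 and 0.47). The complex IV assembly factor Pet100 differed by −0.55 ± 0.45 and the complex II factor Sdhaf1 by −0.67 ± 0.63 after anti-CD3/CD28 culture. The tricarboxylic acid cycle, which supplies NADH and succinate, had 13 of 14 genes measured, with medians of 0.02, 0.23 and −0.26. Suclg2 and Idh3a of that cycle differed by 0.74 ± 0.57 and 0.62 ± 0.53 between anti-CD3/CD28 and syngeneic culture, with all 3 numbers above 0 for both. Suclg1 and Idh3g differed by −0.47 ± 0.62 and −0.31 ± 0.42 between allogeneic and anti-CD3/CD28 culture. Coenzyme Q synthesis (12 of 13 genes) had medians of 0.00, 0.05 and −0.01, with Coq7 at 0.56 ± 0.65 between allogeneic and syngeneic culture and Coq10b at −0.46 ± 0.65 between anti-CD3/CD28 and syngeneic culture.

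Of the 17 regulators of mitochondrial biogenesis, medians were 0.02, 0.00 and 0.01. Pprc1, a coactivator related to PGC-1alpha that is induced by growth signals, stood at 7.35, 8.77 and 8.69 after syngeneic, 7.45, 8.66 and 9.09 after allogeneic and 7.46, 11.57 and 10.21 after anti-CD3/CD28 culture. The anti-CD3/CD28 arrays of numbers 2 and 3 were far above all others, and that of number 1 was nearly level with the others of its number. The mean difference was 1.48 ± 0.90 against syngeneic (0.11, 2.80 and 1.53) and −1.35 ± 0.90 for allogeneic against anti-CD3/CD28 culture. Myc, which drives growth and mitochondrial genes, stood at 9.16, 9.96 and 11.11 after syngeneic, 9.99, 9.86 and 12.18 after allogeneic and 9.98, 10.81 and 12.15 after anti-CD3/CD28 culture, and its anti-CD3/CD28 differences were 0.82, 0.85 and 1.03 with a mean of 0.90 ± 0.72. After allogeneic culture Myc differed by 0.82, −0.10 and 1.06. Of the 13 subunits encoded in the mitochondrial genome, 1 was measured: ND5 of complex I stood at 12.10, 12.14 and 11.22 after syngeneic, 12.31, 12.34 and 11.04 after allogeneic and 12.04, 12.42 and 11.69 after anti-CD3/CD28 culture, with mean differences of 0.08 ± 0.40 and 0.23 ± 0.40.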

How the data were processed

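Deposited values are log2 signals per probe set of an Affymetrix mouse array, computed by the authors by robust multi-array averaging (RMA), per the submitters' processing notes. Its software and version, and a genome build, are not given in the sources used. Culture lasted 24 h, and the first ultraviolet dose was 400 mJ/cm2. Of 45101 probe sets, 64 controls, 932 with several genes and 9160 without a gene were left out. Symbols came from the platform annotation, updated by gene ID, and the brightest of a gene's probe sets was used. The 82 genes and all lists were chosen with earlier results of these data known, and the split into core and accessory subunits and the fat and muscle genes after the values were seen.

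Differences were fitted with limma 3.58.1 in R 4.3.3, with 1 mean per group over all 9 arrays and an intensity trend, and adjusted over 18193 genes at a threshold of 0.05. On simulated data the fit was checked only for the size of planted differences, and not for how many genes were called. Values are means with SE from this fit unless arrays are named. The fit leaves out the replicate number, so each SE takes in the spread between numbers and does not measure that of the within-number differences. The replicate numbers pair the arrays. Once group means were subtracted, same-number arrays of different groups correlated by 0.811 to 0.921 over 9 pairs, so differences are also given within numbers. Values on every array are given by rule for the 4 highest and 4 lowest members of each comparison among those with 1 sign in all 3 numbers, the brightest of each complex, isoform sets, Cycs, Cyc1 and reported miR-210 targets, and for single members noted in the text. Pathway lists are named by the smallest p. Motifs were searched as exact letters on both strands. Alternatives were a fixed or random replicate block, quantile normalization, centred arrays, other probe sets per gene, a filter on dim genes (40th percentile), other variance priors, subunits only, and leaving out arrays. The number of arrays limits the precision.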

Additional observations from a re-analysis of the deposited data

How the results depend on the processing

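The count of respiratory chain genes called was 0 in each of the 3 comparisons under every alternative run, the fixed replicate block included. Among all genes, the random replicate block gave 1 call between allogeneic and syngeneic culture and 30 between anti-CD3/CD28 and syngeneic culture, and centred arrays gave 1 in the latter; the fixed replicate block gave 0 and changed no call. Directions of the chain as a whole depended on single arrays. In allogeneic against syngeneic culture, leaving out 1 array moved the median from −0.23 to 0.36 and the count of higher members from 25 to 72, and leaving out all arrays of number 1, an alternative chosen after seeing the data, gave 29. In allogeneic against anti-CD3/CD28 culture the ranges were −0.27 to 0.34 and 24 to 69, and leaving out number 3, likewise chosen after seeing the data, gave 14. In anti-CD3/CD28 against syngeneic culture they were −0.05 to 0.29 and 39 to 59. Without allogeneic replicate 2 the medians were 0.36 and 0.34 and the counts 72 and 69 in the first and second of these comparisons; without allogeneic replicate 3 the counts were 25 in both, and without anti-CD3/CD28 replicate 2 the second was 24. The cause was not tested. Of 49 members with several probe sets, all probe sets shared the sign in 22, 28 and 22 in the 3 comparisons, in the order of the report. Signals at or under the array median limit the size of differences of Cox7a1, Cox8b, Cox7c, Ndufb1, Ndufb4 and the dim isoforms.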
